A study of Caenorhabditis elegans with 95 samples.

Results

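RNA-seq counts of the C. elegans col- genes were analysed in 95 libraries, of which 85 came from recombinant inbred advanced intercross lines (RIAILs, 1 library each), 6 from CB4856 (Hawaii) and 4 from N2 (Bristol). The genes were chosen by symbol, and a gene was kept when its median over all libraries reached 0.5 CPM (a gene's counts as parts per 1e6 of the library total). Among 46904 genes counted, 156 have a col- symbol, and 121 of them reached the minimum. The RIAILs were inbred after an intercross between CB4856 and QX1430, a strain of N2 background that carries deletions of confounder genes. Each line thus holds its own mix of parental alleles, and libraries of QX1430 itself are not analysed here. N2 stands in for it, and N2 and CB4856 are called the parental strains below. All worms, both parental strains included, were on 15 µg/mL doxycycline (Dox), an antibiotic that impairs mitochondrial translation, so levels were compared between strains on Dox and not with untreated worms. The methods have larvae exposed from L1 and harvested at L4, a legend allows young adults too, and the labels' growth protocol instead has progeny on 5FU plates, so the exact stage and the use of 5FU are not settled. Total counts were 22121202 to 23879871 per library.

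The cuticle of C. elegans is an extracellular coat built mainly of small collagens that the epidermis (hypodermis and seam cells) secretes anew before every molt. Each collagen gene is transcribed in a short window of the molting cycle, with collagens of the furrows made before those that fill the rest of the layer, and some genes are used in a single stage. The adult cuticle, made at the end of L4, holds its own collagens, of which col-19 and col-7 are established markers. Late larval collagens such as col-38, col-49, col-63 and col-71 peak in L4, col-17 belongs to the larval set, col-12 and col-13 are a tandem pair used at every molt, and col-2 and col-40 are known from the dauer larva, an arrested stage. The symbol also covers collagens outside the cuticle, such as col-99, a transmembrane collagen.

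The members are short genes, with a median exon length of 1008 bases, and 116 of the 121 are below 1500 bases. They lie on chromosomes I (15), II (18), III (11), IV (30), V (27) and X (20). Their median levels ran from 0.593 to 4351 CPM. Of them 22 had a median of 1000 CPM or more, 49 lay between 100 and 1000, 30 between 10 and 100 and 20 below 10. Just inside the minimum were col-64 at 0.593 CPM, col-85 at 0.603 CPM and col-56 at 0.812 CPM, and just outside it were col-95 at 0.475 CPM, col-44 at 0.470 CPM and col-158 at 0.429 CPM. All 121 members passed the filter on low counts in each of the 5 fits below. The dauer collagen col-2 did not reach the minimum (median 0.344 CPM), while col-40 did with 0.923 CPM.

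All col- genes together took 1.69 to 9.29% of the counts in the RIAILs (median 7.04%), 4.86 to 8.15% in CB4856 (median 7.58%) and 5.20 to 8.01% in N2 (median 5.97%). The share was lowest in QX552 and QX562 (1.86%) and highest in QX509. The lowest RIAILs lay well below the parental libraries, but the RIAILs are many more libraries. A larger set reaches further by number alone. For a low level, less epidermal RNA, less collagen RNA per cell and a different stage cannot be told apart in whole worms. The 10 collagens with the highest median held a median of 42.9% of the col- counts, with a range of 11.5 to 57.4% over the libraries.

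By level per length, col-73 led with a median of 4440 CPM per kb of exon, followed by col-138 with 3796, col-38 with 3630, col-77 with 3149 and col-71 with 2587 CPM per kb. The larval collagen col-17 stood at 1301, the adult collagen col-19 at 731 and col-12 at 347 CPM per kb. The other adult marker, col-7, had 9.04 CPM per kb. Of the 5 genes that led, col-38 and col-71 are among the late larval markers.

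The 4 late larval collagens varied by 4.79-fold (col-71) to 9.81-fold (col-63) between the lowest and the highest RIAIL. col-38 ran from 877 to 4411 CPM in the RIAILs (median 3362) and from 1605 to 4117 CPM in CB4856 (median 3689), with 3494, 3029, 2024 and 2440 CPM in N2. For col-71 the RIAILs covered 956 to 4580 CPM (median 3394) and CB4856 1574 to 4263 CPM (median 3691), and N2 had 3866, 3263, 2270 and 2735 CPM. Groups overlapped widely for both genes, and the same CB4856 library (A2) was the lowest of its strain for both. col-63 had 349 to 3425 CPM in the RIAILs (median 2039), 726 to 2745 CPM in CB4856 (median 2423) and 2068, 1628, 929 and 1035 CPM in N2. col-49 had 340 to 2344 CPM in the RIAILs (median 1648), 722 to 2039 CPM in CB4856 (median 1839) and 1825, 1624, 1089 and 1376 CPM in N2.

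Adult collagens varied by orders of magnitude. col-19, a structural collagen of the adult cuticle, ran from 3.22 CPM in QX562 to 3118 CPM in QX531 (RIAIL median 660). CB4856 covered 147.6 to 2152 CPM (median 793), and N2 had 87.6, 388, 1144 and 1353 CPM. Even within each parental strain the libraries thus differed by over 10-fold. col-7 ran from 0.0429 CPM in QX552 to 182 CPM in QX531 among RIAILs (median 12.3), from 0.950 to 121 CPM in CB4856 (median 15.5), and stood at 0.506, 6.74, 46.6 and 56.6 CPM in N2. QX531, which held the highest level of 26 of the 156 col- genes, and QX589 led for col-7, col-19, col-8, col-62 and col-119.

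The molt-cycle pair spread less. col-12 had 10.4 to 786 CPM in the RIAILs (median 422), 201 to 690 CPM in CB4856 (median 483) and 177, 328, 479 and 578 CPM in N2. col-13 had 4.202 to 313 CPM in the RIAILs (median 128), 48.6 to 276 CPM in CB4856 (median 142.4) and 41.7, 90.1, 153 and 186 CPM in N2. Both genes were lowest in QX552 and highest in QX510.

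**Figure D1:**
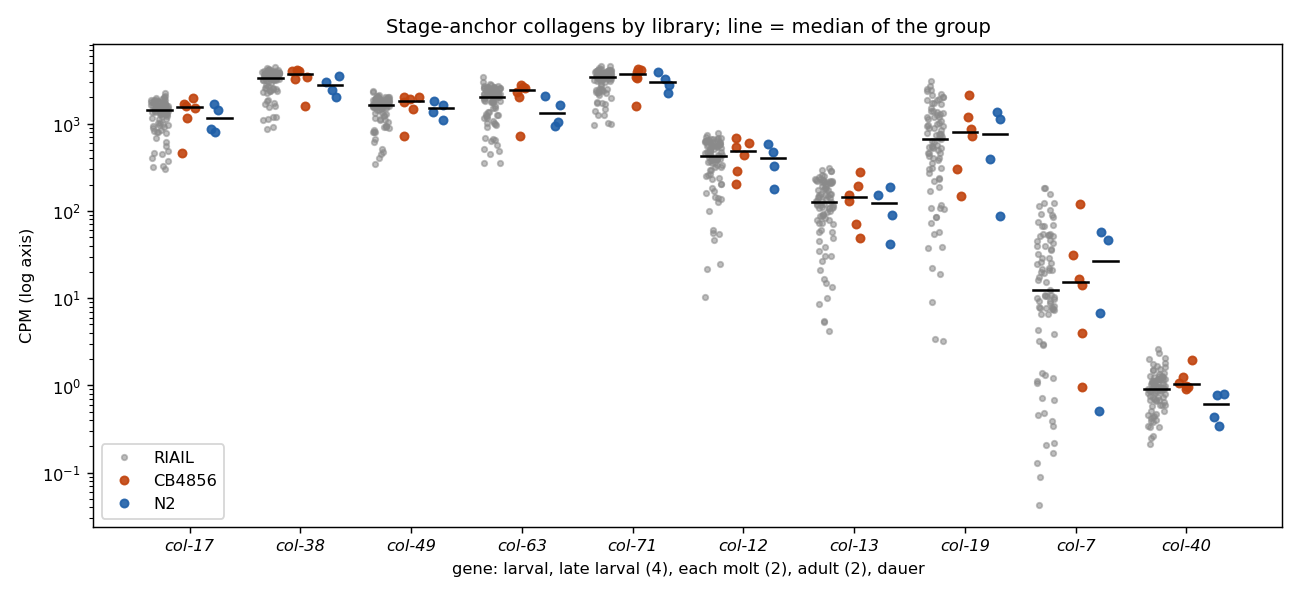
CPM on a log axis for 10 collagens with an established stage, 1 point per library for 85 RIAILs (grey), 6 CB4856 (orange) and 4 N2 (blue) libraries, with the group's median as a line. The late larval collagens stay within 340 to 4580 CPM in every RIAIL, whereas col-7 covers 0.0429 to 182 CPM and overlaps fully between the groups.

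To place every collagen on an axis that no collagen helped to define, each library was given 2 scores. Each is a mean z score of log2 CPM. The molting score covers 15 molting genes, among them mlt-10, nas-37, noah-1 and the hormone receptor nhr-23, which act when a new cuticle is made. The vitellogenin score covers the 6 vitellogenins (vit-1 to vit-6, yolk proteins made by the adult intestine). Stage itself was not measured. The molting score ran from -1.77 in QX510 to 1.54 in QX574 among RIAILs (median 0.093), from -0.888 to 0.874 in CB4856 (median -0.0122) and from -1.28 to 0.863 in N2. The vitellogenin score ran from -2.76 in QX562 to 1.89 in QX508. Over the 85 RIAILs the 2 scores opposed each other, with Pearson's r = -0.857 and Spearman's rho = -0.874 (100000 permutations each, 1 relation tested, p = 1e-05, the smallest they can give). Without the 2 RIAILs farthest from the median molting score r was -0.853, and within the 7 library series (the letter of the library name) it ran from -0.951 to -0.769. The fits on the 2 scores are therefore not independent of each other.

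Nearly all collagens moved along this axis, and most fell as the molting score rose. With edgeR's quasi-likelihood test over the 85 RIAILs (adjusted p under 0.05 over all genes), 76 of the 121 members fell with the molting score, against 31.7% of all 16686 genes tested, and 33 rose, against 33.6% of all genes, and 12 passed in neither direction. Slopes are given in log2 units per SD of the score over the 85 RIAILs. Of the 15 genes that make up the molting score 14 rose with it, nhr-23 with a slope of only 0.11, and nas-36 fell, with -0.28. The median slope of the members on the molting score was -0.33, beside 0.01 over all genes. On the vitellogenin score 74 members rose, against 30.8% of all genes, and 30 fell, against 32.5% of all genes. Every one of the 74 members that rose with the vitellogenin score fell with the molting score, and each of the 30 that fell with the vitellogenin score rose with the molting score. With library series as a block, 72 members fell and 29 rose with the molting score, and all 109 slopes kept their sign in that fit and in each of the other alternatives tried.

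**Figure D2:**
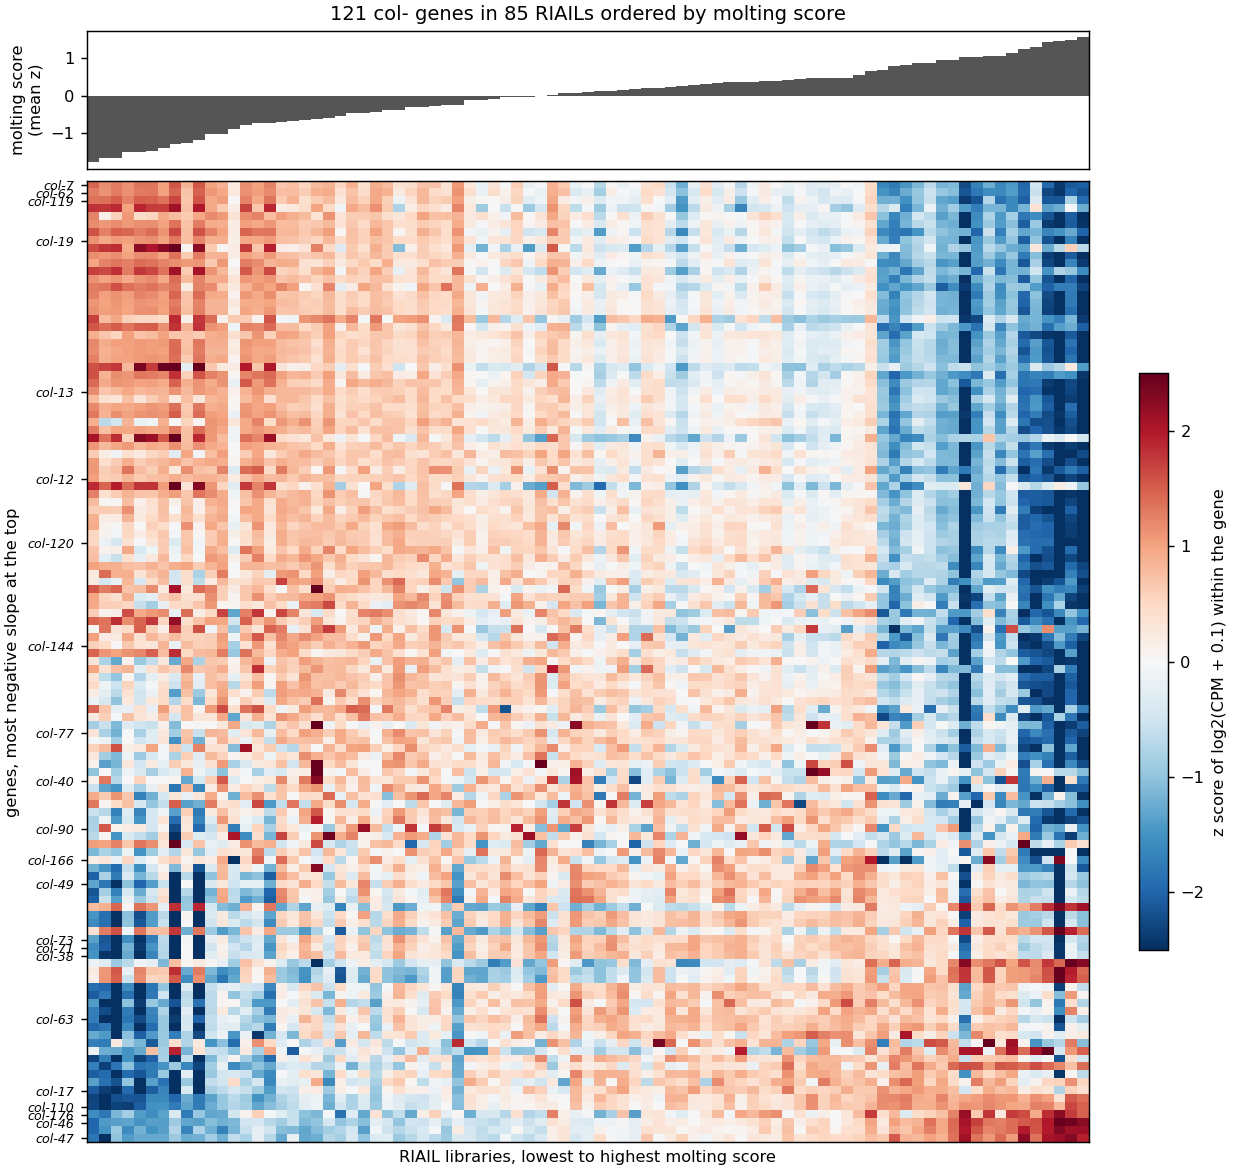
Heat map of 121 col- genes (rows, most negative slope on the molting score at the top) in 85 RIAILs (columns, lowest to highest molting score, plotted as bars above), coloured by the z score of log2(CPM + 0.1) within each gene. The 76 genes that fall with the score fill the upper rows and lose level toward the right, and the last rows, with col-46 and col-47, gain level toward the right.

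The steepest falls included that of the adult marker col-7. It fell by 2.02 ± 0.14 log2 units per SD of the molting score (SE, n = 85, adjusted p = 1.4e-22). Its neighbour col-62, 529 bases away on the opposite strand of chromosome I, fell by 2.01 ± 0.15 (adjusted p = 4.91e-21), and its RIAIL levels of 0.0429 to 179 CPM (median 16.8) nearly match those of col-7. col-119 fell by 1.79 ± 0.13 (adjusted p = 1.01e-22), with a RIAIL minimum of 2.16 CPM and a median of 113 CPM. Also steep were col-8, which fell by 1.78 ± 0.14 (adjusted p = 1.33e-19), and col-137, which fell by 1.65 ± 0.19 (adjusted p = 8.54e-13). The adult marker col-19 fell by 1.56 ± 0.13 (adjusted p = 1.33e-19). On the vitellogenin score the same 5 genes that fell most steeply with molting had the steepest rises among members with a mean log2 CPM of 3 or more, led by col-7 with 2.17 ± 0.14 (adjusted p = 1.39e-24) and col-62 with 2.15 ± 0.14 (adjusted p = 1.57e-23).

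Between the extremes stood the molt-cycle pair, with col-13 falling by 1.05 ± 0.09 (adjusted p = 2.37e-17) and col-12 falling by 0.82 ± 0.09 (adjusted p = 3.19e-14). The 4 late larval collagens rose with the molting score, but shallowly. col-63 had a slope of 0.36 ± 0.09 (adjusted p = 0.000164), col-38 of 0.22 ± 0.06 (adjusted p = 0.000623) and col-71 of 0.22 ± 0.06 (adjusted p = 0.000617). col-49, with a slope of 0.16 ± 0.07 (adjusted p = 0.0397), missed the threshold under another scaling (0.0502) and without the filter on low counts (0.0816). The larval collagen col-17 rose more steeply, by 0.53 ± 0.05 (adjusted p = 1.28e-14).

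Levels at the ends of the score varied between libraries. At the low end col-38 had 1696 CPM in QX510 (molting score -1.77) and 877 CPM in QX511 (-1.65), and at the high end 1203 CPM in QX552 (1.45) and 2768 CPM in QX560 (1.47), against a RIAIL median of 3362 CPM and a maximum of 4411 CPM in QX518 (0.079). All 4 of these libraries were below the median for col-38, but QX511 was also its lowest RIAIL. QX574, with the highest score (1.54), and QX520 (-1.653) are not shown. The 4 libraries are thus picked examples and not the full ends of the score. col-77, among the most abundant genes, had 3328 CPM in QX510 and 1553 CPM in QX511, and 241 CPM in QX552 and 980 CPM in QX560, against a median of 3228 CPM and a maximum of 5127 CPM in QX514 (-0.378). For this gene QX510, with the lowest score, was above the median and the other 3 were below it. No curved fit was made.

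**Figure D3:**
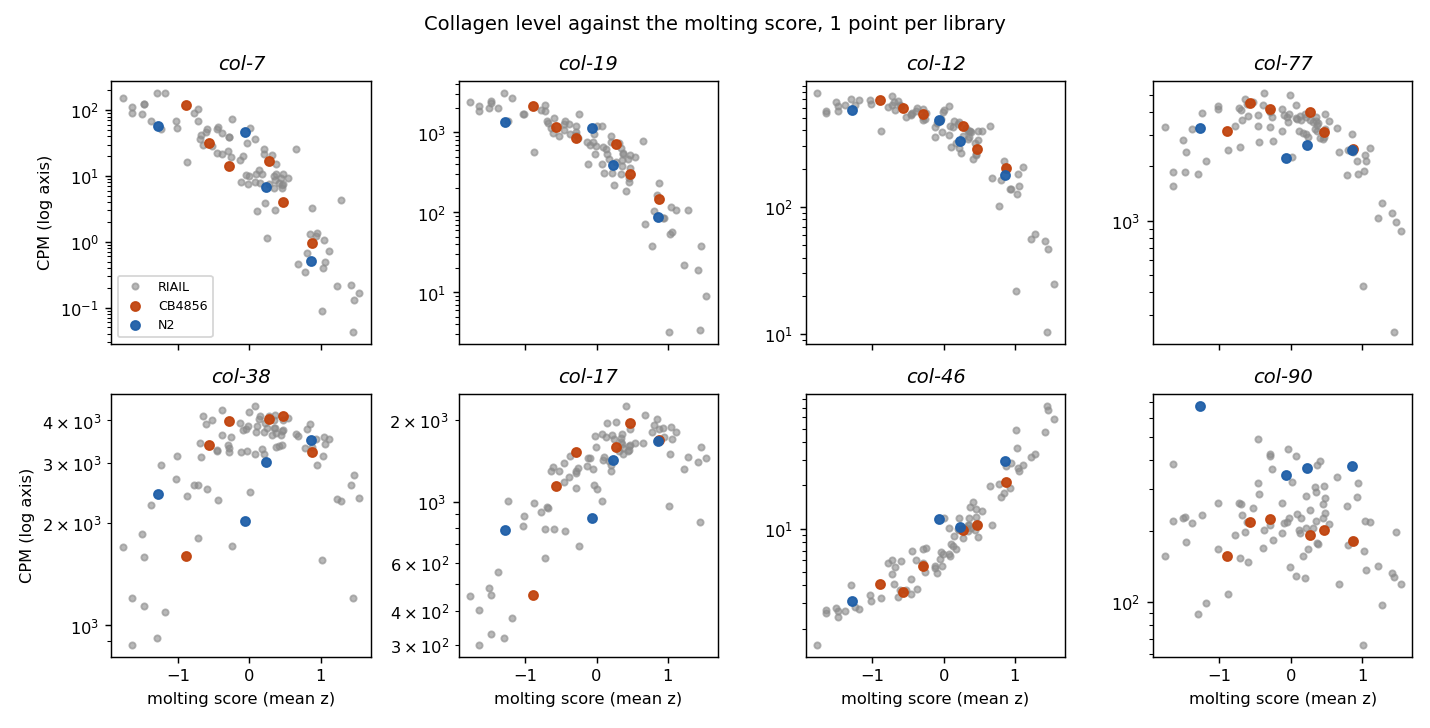
CPM on a log axis against the molting score (mean z score of 15 genes) for 8 collagens, 1 point per library of RIAILs (grey), CB4856 (orange) and N2 (blue). col-7 and col-19 fall and col-46 rises with the score, and in col-90 the 4 N2 libraries lie above the 6 CB4856 libraries at any score. col-38 is below its RIAIL median in QX510 and QX511 (low scores) and in QX552 and QX560 (high scores), which are picked examples.

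The steepest rises among members with a mean log2 CPM of 3 or more were those of col-46 (1.19 ± 0.04, adjusted p = 2.43e-43), col-176 (1.06 ± 0.09, adjusted p = 3.25e-19), col-110 (1.05 ± 0.04, adjusted p = 5.19e-39), col-79 (0.95 ± 0.05, adjusted p = 8.22e-34) and col-17. col-46 had 1.54 to 71.8 CPM in the RIAILs (median 7.58), and its highest libraries were QX552 and QX560 (67.2 CPM). col-47, at a lower level, had the largest slope of all members (1.37 ± 0.06, adjusted p = 5.16e-39). col-46 and col-47 overlap by 1326 bases, introns included, on opposite strands of chromosome I. Overlap of exons was not measured. Since the strand setting of the counting is not given, any reads in shared exons cannot be told apart. col-176 had 12.4 to 537 CPM in the RIAILs (median 67.6) and was highest in QX552 and QX562 (508 CPM). QX552 was the lowest library for 48 of the 121 members, and the highest for 8, among them col-46, col-128 and col-176.

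Replicate libraries of the parental strains, which the slopes did not use, were compared at the extremes of the score. This sets 1 library against 1 in each strain, and the genes move together, so they are not replicates. No share over all genes is set beside the counts, so they describe these libraries only. Between the CB4856 libraries with the lowest molting score (A2, -0.888) and the highest (1, 0.874), 72 of the 76 genes that fell in the RIAILs were higher in A2 and 4 were lower, and all 33 that rose were lower in A2. Between the N2 libraries 4 (-1.28) and 1 (0.863), 74 of the 76 were higher in library 4 and 2 were lower, and 32 of the 33 were lower in library 4 and 1 was higher. The 76 genes took 0.313 to 7.88% of the counts in the RIAILs (median 3.68%), 1.72 to 6.36% in CB4856 and 1.76 to 5.55% in N2. The 33 genes took 0.881 to 3.92% in the RIAILs (median 3.01%), 1.33 to 3.59% in CB4856 and 1.95 to 3.30% in N2. QX552 was the lowest library of the first set and QX531 the highest, and QX531 was the lowest of the second.

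The 12 members not called on the molting score were not called on the vitellogenin score either. Among them were col-90, col-166 and col-76, all of them called between the parental strains, and also col-64, col-148 and col-34. Together the 12 took 0.062 to 0.142% of the counts in the RIAILs, 0.0766 to 0.0905% in CB4856 and 0.107 to 0.146% in N2.

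Position on the chromosome was compared with the slopes over neighbouring col- genes, at most 5000 bases apart. There were 29 such pairs, of which 23 joined 2 members. In 17 of these both genes fell with the molting score, in 2 both rose, in 3 they moved in opposite directions, and in 1 a gene was not called. Since 76 of the 121 members fell, many pairs would both fall whatever their position, and no expected number was computed. col-159 and col-160, which both fell, overlap on the same strand (gap of -1196 bases), and col-46 and col-47, which both rose, also overlap. Whether shared reads make such pairs alike was not tested. The 3 opposite pairs were in 2 short clusters on chromosome II. In the first, col-17 (4866436 to 4867576), col-20 (4869670 to 4870791) and col-73 (4872098 to 4873129) lie on the same strand. col-20 had 9.17 to 3413 CPM in the RIAILs (median 708) and fell by 1.43 log2 units per SD of the score, while col-17 and col-73 on its sides had slopes of 0.53 and 0.21. In the other, col-79 (10703613 to 10704572) and col-39 (10704916 to 10706019) also share a strand and lie 343 bases apart, and col-79 rose by 0.95 while col-39, with 34.2 to 2107 CPM in the RIAILs (median 324), fell by 1.32. Coordinates are those of WBcel235. col-20 and col-39, and col-34, col-42, col-148, col-168 and col-171 elsewhere, were named after their values were seen.

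Other cuticle genes, from lists of known genes, were set beside the members. Of 21 cuticle collagens with other names (dpy, rol, sqt, bli, lon and ram genes), 17 rose with the molting score and 1 fell. The furrow collagens dpy-2, dpy-3, dpy-7, dpy-8, dpy-9 and dpy-10, which act early in each cycle, had slopes of 1.29 to 1.35, near those of col-47 (1.37) and col-128 (1.34). dpy-4, dpy-5 and dpy-13 had slopes of 0.24, 0.24 and 0.26, near that of col-38 (0.22). The exception was ram-2, which fell by 0.25. This list thus leaned the opposite way from the col- genes, where 76 of 121 fell. Of 12 genes that process and cross-link collagens 6 rose and 5 fell, among them the prolyl 4-hydroxylase subunit phy-2 (0.48) and the thioredoxin-like dpy-11 (0.64) on the one side, and the peroxidase mlt-7 (-0.67) and the dual oxidase maturation factor doxa-1 (-0.59) on the other. Of 3 basement membrane collagens, which are not part of the cuticle, cle-1 alone passed, with a slope of -0.19, and emb-9 and let-2 had slopes of -0.04 and -0.03. Among 10 regulators of the epidermis and its timing 5 rose, with blmp-1 at 0.48 and lin-29, which drives the switch to the adult cuticle, at 0.43, and 3 fell, with lin-41 at -0.41. Of the markers of other tissues, 6 of 6 oocyte genes and 5 of 5 sperm genes fell with the molting score, and of 5 male genes tested mab-3 alone passed (0.76). The muscle genes myo-3, unc-54 and unc-15 had slopes of 0.0070, -0.0091 and -0.040 (edgeR adjusted p = 0.8285, 0.760 and 0.0921). The part of these tissues in the slopes of the members was not tested.

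CB4856 was compared with N2, the background of the other parent QX1430, to find collagens that differ between these strains. Few did. With edgeR's quasi-likelihood test on the 10 libraries, 6 of the 121 members were higher in CB4856, where 8.79% of the 15718 genes tested were called higher, and 3 were lower, where 7.28% of all genes were called lower. The median log2 fold change of the members, CB4856 over N2, was 0.16, beside -0.0048 over all genes. In 6 members (4.96%) the libraries of the strains did not overlap, beside 14.1% of all genes tested. These p-values measure the spread between these libraries, which may be technical, since nothing says that they came from separate cultures. The reads of both strains were aligned to the genome sequence of N2, and a loss of CB4856 reads at sequence differences was not tested.

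The clearest difference was in col-90. It had 156 to 224 CPM in CB4856 (median 197), against 377, 370, 347 and 676 CPM in N2. Each N2 library was above every CB4856 library, with a log2 fold change of -1.07 ± 0.19 (SE, adjusted p = 0.00269). This call held in all 10 fits that left out a library, with adjusted p up to 0.00788. col-90 (III, 7948838 to 7950068) overlaps let-754 on the other strand by 98 bases. The 85 RIAILs had 65.9 to 492 CPM (median 218), and none was above the highest parental library.

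col-130 was higher in CB4856. It had 1020 to 1767 CPM in CB4856 (median 1373), against 763, 862, 739 and 968 CPM in N2. The strains did not overlap, the log2 fold change was 0.83 ± 0.17 (adjusted p = 0.00718), and the call held in all 10 fits without a library, with adjusted p up to 0.0362. All 1012 bases of col-130 (IV, 12427505 to 12428516) lie within ugt-65 on the other strand, which had a median of 347 counts.

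A tandem cluster on chromosome X held differences in both directions. col-167 (6323488 to 6324393) had 198 to 380 CPM in CB4856 (median 331), against 432, 486, 654 and 816 CPM in N2, with no overlap and a log2 fold change of -0.89 ± 0.23 (adjusted p = 0.0223). col-170 (6331709 to 6332611) further along the same strand had 140.8 to 295 CPM in CB4856 (median 247), against 87.8, 122, 137 and 170 CPM in N2. The lowest CB4856 libraries overlapped the highest N2 library, and the log2 fold change was 0.94 ± 0.23 (adjusted p = 0.0202). Between them lie col-168, with a log2 fold change of 0.43 (adjusted p = 0.248), and col-169, with -0.02 (adjusted p = 0.947). col-171, the next gene, had a median of 0.0429 CPM. Upstream of the cluster, col-166 (6280016 to 6280921) had 196 to 312 CPM in CB4856 (median 284), against 415, 327, 419 and 402 CPM in N2, a log2 fold change of -0.42 ± 0.13 (adjusted p = 0.0471). col-166, col-167 and col-168 have equal exon lengths of 906 bases, and col-169 and col-170 of 903. Whether reads are shared among these similar genes was not tested. col-167 lost its call without N2 library 3 (adjusted p up to 0.0732) and without N2 library 4, col-170 without N2 library 2 and without N2 library 3 (up to 0.0727), and col-166 kept its call in 2 of the 10 such fits (up to 0.123).

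The remaining calls were smaller or at low levels. col-107, among the most abundant collagens, had 1603 to 3069 CPM in CB4856 (median 2427), against 1669, 1745, 1594 and 1996 CPM in N2, with a log2 fold change of 0.58 ± 0.17 (adjusted p = 0.0438). Its call held in 1 of the 10 fits without a library, the fit without CB4856 library 1 (adjusted p up to 0.151 in the others). col-76 had 69.4 to 91.9 CPM in CB4856 (median 79.99), against 47.02, 62.7, 51.9 and 75.2 CPM in N2, a log2 fold change of 0.55 ± 0.13 (adjusted p = 0.0179), and lost its call without N2 library 3 (0.0835). The dauer collagen col-40 had 0.914 to 1.97 CPM in CB4856 (median 1.03), against 0.801, 0.341, 0.433 and 0.786 CPM in N2, a log2 fold change of 1.10 ± 0.33 (adjusted p = 0.0472) that was called in 2 of the 10 fits without a library (up to 0.147). col-85 had 0.475 to 1.09 CPM in CB4856 (median 0.711), against 0.337, 0.341, 0.520 and 0.349 CPM in N2, a log2 fold change of 1.02 ± 0.27 (adjusted p = 0.0274) that was called in 6 of the 10 (up to 0.0908).

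**Figure D4:**
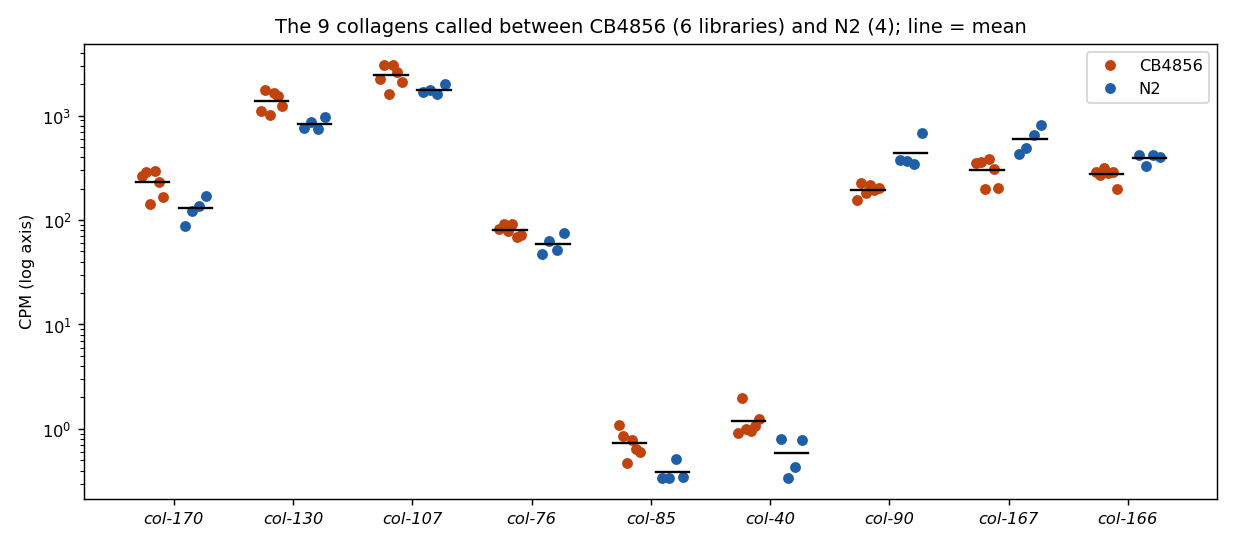
CPM on a log axis of the 9 collagens called between CB4856 (orange, 6 libraries) and N2 (blue, 4 libraries), with the mean of each strain as a line. col-130, col-40, col-90, col-167 and col-166 show no overlap between the strains, and col-107, col-170, col-76 and col-85 overlap.

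With a block for the batch numbers found in the titles (8 libraries), 4 members were called, of which 1 was higher in CB4856. They were col-90 (adjusted p = 0.0183), col-130 (0.0353), col-167 (0.0498) and col-42, which was not called without the block, and the same 8 libraries without the block gave 3. With the library letter as a block none of the 9 was called (all 9 kept their sign, 7 had an unadjusted p under 0.05). Only letters B, F and G held both strains, so that fit rests on few libraries. Its lost calls cannot be read as an effect of the letter. With the molting score as a covariate 24 members were called, 19 of them higher in CB4856, and these included all 9. The share of all genes called in that fit is not given, so whether the gain is particular to collagens cannot be told. Leaving out N2 library 3 left 3 calls and N2 library 4 left 4, and CB4856 library B4, CB4856 library 2 and N2 library 2 left 5 each.

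For the larval, adult and molt-cycle markers the adjusted p between the strains was 0.224 or more. The log2 fold change was 0.37 ± 0.78 for col-19 (adjusted p = 0.801), 0.28 ± 1.22 for col-7 (adjusted p = 0.911), 0.40 ± 0.26 for col-38 (adjusted p = 0.348) and 0.71 ± 0.37 for col-63 (adjusted p = 0.224). Without CB4856 library A2, the lowest of its strain for col-63, this gene was called (adjusted p = 0.0370). The SE of the adult markers is several times that of col-130, so only a large difference could have passed for them.

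Variation among RIAILs was tested as the equality of 85 strain levels, with the spread between libraries of a strain taken from the parental strains (8 degrees of freedom), since each RIAIL had 1 library. Of the 121 members 8 were called, against 5.52% of the 17058 genes tested. The spread among RIAILs was wide all the same. Over members the median SD of log2 CPM among RIAILs was 0.854, beside 0.398 over all genes, and 56 members had an SD above 1, which is 46.3% of them, beside 13.6% of all genes. The spread within the parental strains was also wide in collagens, with a median SD of 0.638, beside 0.324 over all genes. The SD among RIAILs exceeded that within parental strains in 105 members. The share over all genes was not computed, so this count has no background beside it.

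The collagens with the largest spread were not the ones called. In 9 members the SD among RIAILs was above 2, all of them fell with the molting score, and their SD within parental strains reached 2.64. Of these 9, 0 were called with edgeR, 0 with limma-voom, and 0 had an unadjusted p under 0.05 (adjusted p 0.306 to 0.658). For col-7 the SD was 2.64 among RIAILs and 2.64 within parental strains, and for col-19 it was 2.12 and 1.55.

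**Figure D5:**
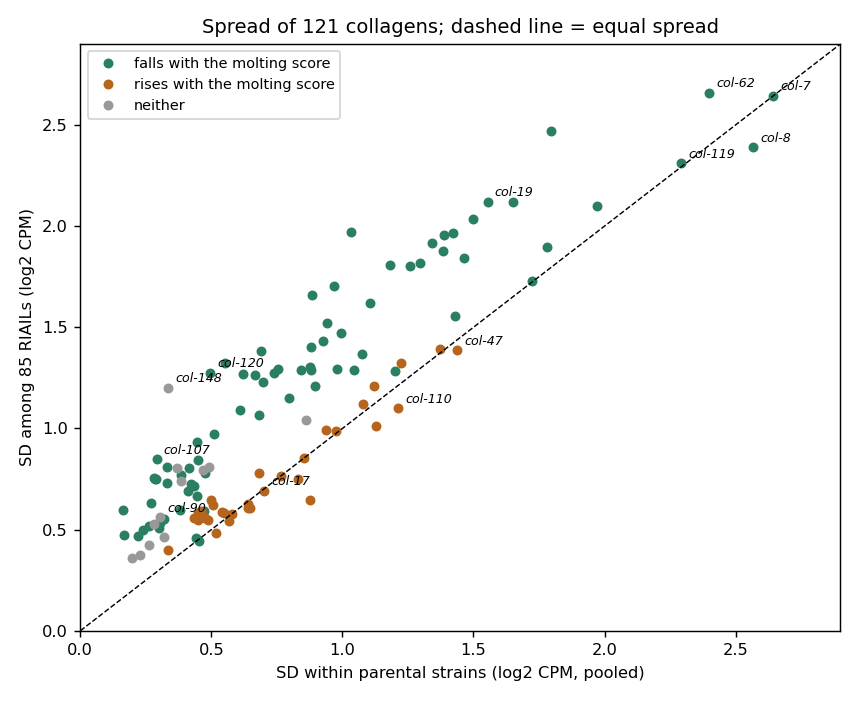
SD of log2 CPM among 85 RIAILs against the pooled SD within the parental strains for 121 collagens, coloured by whether a gene falls (green), rises (brown) or does neither (grey) with the molting score. Genes with the largest SD among RIAILs, such as col-7 and col-62, also vary most between replicate libraries, and col-107 and col-148 lie far above the line of equal spread.

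Of the 8 called members, 3 were among the abundant genes. Counts of RIAILs outside the parental range set many libraries against few, so some would lie outside by number alone. col-107 had 135 to 3524 CPM in the RIAILs (median 2144), with 26 RIAILs below and 3 above every parental library, and an SD of 0.849, against 0.291 within parental strains (adjusted p = 0.0197). col-130 had 79.7 to 2005 CPM in the RIAILs (median 1131), 14 below and 3 above (adjusted p = 0.0336), and col-77 had 241 to 5127 CPM (median 3228), 17 below and 4 above (adjusted p = 0.0398). All 3 were lowest in QX552. Without QX552 and QX560, libraries chosen after seeing the data, col-107 kept its call and col-130, col-77 and col-89 lost theirs, which left 5. col-169 had 89.1 to 349 CPM in the RIAILs (median 230), with 32 above and 18 below the parental range (adjusted p = 0.0219). This is the gene of the X cluster with a similar level in CB4856 and N2.

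The remaining 4 calls were at lower levels. col-68 had 5.14 to 83.2 CPM in the RIAILs (median 20.6), against 17.9 to 24.02 CPM in CB4856 and 19.1 to 25.0 CPM in N2, with its highest levels in QX501 (83.2 CPM) and QX536 (61.6 CPM), 18 RIAILs above and 28 below the parental range and an adjusted p of 0.00349. col-89 had 5.36 to 108 CPM in the RIAILs (median 64.05), with its highest levels in QX501 and QX597, and 5 RIAILs above and 20 below (adjusted p = 0.0347). Of the low genes, col-148 had a RIAIL median of 0.870 CPM but 29.3 CPM in QX501 and 19.1 CPM in QX505, with 14 RIAILs above and 28 below (adjusted p = 0.000781). col-64 had a median of 0.593 CPM but 15.7 CPM in QX501 and 7.38 CPM in QX505, with 9 RIAILs above and 2 below (adjusted p = 0.0262). QX501 was the highest library for 13 of the 156 col- genes. A list of 7 male genes (among them try-5 and plg-1, of the male reproductive tract) summed to 159 CPM in QX501 and 77.8 CPM in QX505, against 2.61 to 26.8 CPM in the rest of the RIAILs, 3.25 to 9.45 CPM in CB4856 and 4.58 to 14.04 CPM in N2, and none of the 7 was at 0 in QX501. Its part in these levels was not tested. Without QX501, col-148 (adjusted p = 0.00369), col-68 (0.00801) and col-89 (0.0397) were still called and col-64 (0.224) was not. QX536, with 61.6 CPM of col-68, had 3.52 CPM of the male list.

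The count of 8 depended on the parental libraries that set the spread. It was 17 without CB4856 library A2, 17 without CB4856 library 1, 13 without N2 library 1, 5 without CB4856 library B4 and 4 without N2 library 2, CB4856 library 3 or N2 library 3. col-107, col-148 and col-68 were called in all 10 of these fits.

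Library series were compared because each RIAIL was in a single series, lettered A to G, so series and strains cannot be told apart. Between series 50 of the 121 members differed, against 61.4% of 16686 genes tested, a share of 41.3% that lies below the background. The stage scores also differed, with a median molting score of -0.601 in series A (7 RIAILs) and 0.854 in series C (11 RIAILs), and the share of col- genes had its highest median in A (8.20%) and its lowest in C (5.62%). With both scores as covariates 44 members were called, of which 33 were among the 50. limma-voom called 81.

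The 5 collagens with the smallest p between series were col-47, col-176, col-46, col-128 and col-101. col-176 had medians of 39.3, 92.0, 103, 39.6, 98.2, 117 and 30.5 CPM in series A to G (adjusted p = 1.4e-05), and with the scores as covariates its adjusted p was 0.00298. Series A, D and G were low and B, C, E and F high. col-46 had medians of 5.91, 9.97, 17.7, 4.97, 9.83, 10.0 and 5.21 CPM in series A to G (adjusted p = 2.78e-05, or 0.00517 with the scores), the same division. col-47, which overlaps col-46, had an adjusted p of 1.13e-05, or 0.00667 with the scores. col-128 (7.34e-05, or 0.244 with the scores) and col-101 (7.39e-05, or 0.296 with the scores) lost their calls. col-101 was 28.4 CPM in series A and 7.30 CPM in series C at the median, and up to 205 CPM in QX531. It overlaps drl-1 on the other strand over 1586 bases.

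Collagens with a known role outside the stage sets were followed in all groups. col-10, col-13, col-120 and col-144 have been linked to long life under reduced insulin signalling. col-120 had 8.27 to 1397 CPM in the RIAILs (median 766), 460 to 1189 CPM in CB4856 (median 943) and 376, 614, 562 and 842 CPM in N2. It fell by 0.60 ± 0.11 log2 units per SD of the molting score (adjusted p = 3.69e-06), and its parental log2 fold change was 0.69 ± 0.27 (adjusted p = 0.112). It was the most variable of the 4 after col-13, with an SD of 1.28 among RIAILs, against 0.495 within parental strains (adjusted p = 0.0511 for variation among RIAILs). col-10 had 167.03 to 697 CPM in the RIAILs (median 507), 355 to 590 CPM in CB4856 (median 505) and 476, 469, 583 and 779 CPM in N2, and fell by 0.26 ± 0.05 (adjusted p = 1.67e-06). col-144 had 128 to 660 CPM in the RIAILs (median 486), 318 to 617 CPM in CB4856 (median 535) and 404, 431, 510 and 727 CPM in N2, and fell by 0.36 ± 0.05 (adjusted p = 4.42e-09). col-10 and col-144 are near-neighbours on chromosome V and are among the steadier collagens.

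col-41, col-141 and col-142 are targets of the BMP pathway that sets body size. col-142 had 15.3 to 1110 CPM in the RIAILs (median 66.8), 32.6 to 346 CPM in CB4856 (median 65.7) and 39.8, 28.03, 104 and 104 CPM in N2, and fell by 0.96 ± 0.09 with the molting score (adjusted p = 1.43e-15). Its tandem neighbour col-141, 437 bases away, had 2.61 to 15.1 CPM in the RIAILs (median 8.35), 6.65 to 9.71 CPM in CB4856 (median 8.06) and 7.59, 6.48, 8.40 and 10.3 CPM in N2, and fell by 0.23 ± 0.04 (adjusted p = 3.3e-06). The pair thus moved in the same direction with slopes of different size. col-41 had 7.57 to 118 CPM in the RIAILs (median 25.97), 20.5 to 77.96 CPM in CB4856 (median 35.2) and 71.98, 34.4, 50.5 and 13.3 CPM in N2, and rose by 0.39 ± 0.09 (adjusted p = 0.00012). Its full 1450 bases, introns included, overlap the span of ucr-2.2, a gene of the respiratory chain, on the other strand. ucr-2.2 had a median of 4788 counts, and overlap of exons was not measured, so the level of col-41 is uncertain. col-99, the transmembrane collagen, had 10.3 to 38.2 CPM in the RIAILs (median 23.3), 13.01 to 28.8 CPM in CB4856 (median 21.2) and 42.1, 17.2, 21.2 and 16.2 CPM in N2, and rose by 0.44 ± 0.03 (adjusted p = 2.21e-28). Between CB4856 and N2 the adjusted p of these 8 genes was 0.112 or more.

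Further members share bases, introns included, with a gene on the opposite strand, which matters where that gene is well expressed. col-19 overlaps ZK1193.2 (median 925 counts) over its whole length of 985 bases, col-138 overlaps C52D10.3 (1485 counts), col-119 overlaps pdzd-8 (2069 counts), col-79 overlaps dph-2 (409 counts), col-107 overlaps C34H4.5 (165 counts) and col-14 overlaps C46A5.4 (71 counts). Beside these, the members' own median counts were 15859 for col-19, 75491 for col-138, 2654 for col-119, 2830 for col-79, 49612 for col-107 and 39436 for col-14. The partner came nearest to the member's own count for col-119. Overlap of exons was not measured, and without the strand setting any reads in shared exons cannot be told apart.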

How the data were processed

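RNA of 85 RIAILs, CB4856 (6 libraries) and N2 (4), all on 15 µg/mL Dox, was sequenced by the authors on a BGISEQ platform, checked with FastQC and aligned to WBcel235 with STAR (version 2.73a, per the submitters' processing notes). The authors deposited raw read counts per gene. How reads were assigned to genes (counter, strand, annotation release) was not given in the sources used here. Every column was matched to a sample by library name. Of 46904 gene IDs, 44017 had a symbol and 46817 were in the annotation (Ensembl release 115). CPM used the column sum. Totals of 22121202 to 23879871 counts per library were even, so depth differed little between groups.

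Counts were tested in R 4.3.3 with edgeR 4.0.16 (TMM, filterByExpr, glmQLFTest, Benjamini-Hochberg adjusted p under 0.05 over all genes), or, as alternatives, with voom (limma 3.58.1) or DESeq2 1.42.0, for CB4856 against N2, variation among RIAILs, library series and slopes on 2 scores (mean z scores of log2 CPM, prior count 2, divided in the fits by their SD over the RIAILs). The script was tested on simulated counts. Python 3.11.15 (scipy 1.17.1, numpy 2.4.6) made the summaries. The titles number 4 libraries of each strain as batches, which on that ground were taken as pairs. Deviations of same-numbered CB4856 and N2 libraries correlated at r = 0.684, 0.195, 0.0868 and -0.511, and of differently numbered ones at -0.678 to 0.625, so the values do not bear the pairing out.

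The members and lists were chosen with earlier results of these data known. Genes named are stage markers, the 10 with the highest median CPM and 5 per kb, up to 10 called per direction between the strains with a mean of at least 1 CPM, the 10 called among RIAILs with the largest SD and a mean log2 CPM of at least 3, the 5 smallest p between series, 5 slopes per direction at a mean log2 CPM of at least 3, 3 genes on each side of the minimum and 8 with a known role. A clause on near-identical proteins was not applied, since no sequences were used, and col-6 was not matched by symbol. Also tried were RLE scaling, stricter or no filtering of low genes, blocks, covariates and leaving out libraries.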

Additional observations from a re-analysis of the deposited data

Results flagged for a closer look

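Single parental libraries stood apart from the rest of their strain in 12 of 94 strain and gene combinations checked (12.8%), by a gap test on log2 CPM. Chance would give about 1 in 20 if the combinations were independent. They are not, since they share libraries and many of the genes move together, so whether the share exceeds chance cannot be judged. In 9 of them CB4856 library A2 was the lowest of the 6 CB4856 libraries, with 1605 CPM of col-38, 722 CPM of col-49, 726 CPM of col-63, 1574 CPM of col-71, 458 CPM of col-17, 2133 CPM of col-73, 1512 CPM of col-138, 670 CPM of col-97 and 733 CPM of col-14. All are abundant genes that rose with the molting score among RIAILs, and A2 had the lowest molting score of CB4856 (-0.888), whose part in these levels was not tested. N2 library 4 was the highest of N2 for col-90, with 676 CPM. CB4856 library 4 was the lowest of its strain for col-166, with 196 CPM. N2 library 3 was the highest of N2 for col-85, with 0.520 CPM.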

How the results depend on the processing

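Counts of collagens called between CB4856 and N2 (9, of which 6 higher and 3 lower in CB4856) depended on the settings, and the causes were not tested. Shares of all genes called under the alternatives are not given, so these counts have no background beside them. Without the filter on low counts, and with at least 10 counts in each library, 5 were called (3 higher). The replicate block by batch number left 4 (1 higher), the same 8 libraries without the block 3 (1 higher), and the library letter as a block 1 (0 higher, with 15 higher and 5 lower at an unadjusted p under 0.05). The letter block rested on letters B, F and G, which alone held both strains. The molting score as a covariate gave 24 (19 higher, 5 lower). DESeq2 gave 13, limma-voom 7 and RLE size factors 8. Leaving out a library gave 3 to 12 calls, of which 2 to 9 were higher and 1 to 4 lower. Calls among RIAILs (8) were 10 with limma-voom, with RLE size factors and without the filter, 5 without QX552 and QX560 (chosen after seeing the data) and 4 to 17 without a parental library. Calls between series (50) were 81 with limma-voom, and within 1.5 times otherwise. Slope counts stayed within 1.5 times under each alternative, 29 to 34 rising and 72 to 77 falling with the molting score, and 72 to 75 rising and 24 to 29 falling with the vitellogenin score. Depth was even between libraries, and members near 0.5 CPM rest on few reads.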

Other observations

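Of the 35 col- genes below the minimum, 3 had more than 10 CPM in some library. col-95 had a median of 0.475 CPM but 15.0 CPM in QX589, 11.2 CPM in QX494 and 10.1 CPM in QX531. col-135 had a median of 0.297 CPM but 12.6 CPM in QX520 and 11.7 CPM in QX579. In N2 it ran from 0.0843 to 4.42 CPM. col-132 had a median of 0.218 CPM but 13.9 CPM in QX501 and 9.29 CPM in QX505, the 2 RIAILs with the highest summed level of the male list. The genes were chosen after their values were seen, and no test was made.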
